A study of Mus musculus with 11 samples.

Results

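Desmosomes and adherens junctions hold neighbouring epithelial cells together. The genes described here are Dsp, Dsg2, Dsc2, Jup, Pkp2, Pkp3, Cdh1 and Epcam, which encode proteins of these 2 junctions or of the same cell surface. They were chosen by name: each is the gene whose symbol the array's annotation gives as the only symbol of a transcript cluster, a set of probes for 1 transcribed locus. Each of the 8 genes had exactly 1 such cluster, so they are 8 of the 19946 genes measured. Their levels were followed in the rectal mucosa of 11 mice, on 1 Affymetrix Mouse Gene 1.0 ST array per mouse. Values are on the log2 scale, so a difference of 1 is a doubling.

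The mutant mice, named α6ΔIEC-TAM, carry an Itga6 gene that tamoxifen is meant to delete in intestinal epithelial cells. Itga6 encodes integrin α6, a subunit of the receptor that ties epithelial cells to laminin. The mutant tamoxifen group held 4 mutant mice given tamoxifen by gavage at 10 mg per day, every other day over 5 days from 8 weeks of age. The mutant NaCl group held 4 mice of the same genotype given NaCl in place of the drug, and the control tamoxifen group held 3 wild-type mice given tamoxifen. All mice were 10 weeks old and were sampled 15 days after the first gavage. Males made up 1 of 4 mutant tamoxifen mice, 1 of 4 mutant NaCl mice and 2 of 3 control tamoxifen mice. The driver of the Cre recombinase is not given in the sources used here. Replicate numbers name the arrays within a group and have no other meaning.

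In a desmosome, cadherins of the desmoglein and desmocollin families reach across the gap between cells. On the inner side, the armadillo proteins plakoglobin and plakophilin bind the cadherin tails, and desmoplakin links them to keratin filaments. In an adherens junction, E-cadherin binds its partner on the next cell and connects through catenins to actin. In the simple, single-layered epithelium of the gut, Dsg2 and Dsc2 are the main desmosomal cadherins. Stratified squamous epithelium, such as the anal lining, also uses Dsg1, Dsg3, Dsc1 and Dsc3.

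Promoters were examined for only 3 of the 8 genes, which does not show that sequences were lacking for the others. The sequences came from a RefSeq table on mouse assembly GRCm38.p6, each covering 250 bases before to 50 after the annotated start of transcription. Those of Dsp and Epcam are shown, because both hold CACCTG, the E-box form that the repressors Snai2 and Zeb1 are known to bind. Capitals mark the E-box, which reads CAGGTG where it lies on the other strand. The Dsp promoter lies on the plus strand at chr13:38151044-38151343 and the Epcam promoter on the plus strand at chr17:87635729-87636028.
Dsp: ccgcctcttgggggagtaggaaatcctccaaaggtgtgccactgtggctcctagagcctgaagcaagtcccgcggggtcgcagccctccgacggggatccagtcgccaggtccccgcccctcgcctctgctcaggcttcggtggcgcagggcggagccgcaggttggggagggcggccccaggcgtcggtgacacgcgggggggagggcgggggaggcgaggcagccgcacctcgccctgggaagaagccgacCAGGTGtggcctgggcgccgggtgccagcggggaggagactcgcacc
Epcam: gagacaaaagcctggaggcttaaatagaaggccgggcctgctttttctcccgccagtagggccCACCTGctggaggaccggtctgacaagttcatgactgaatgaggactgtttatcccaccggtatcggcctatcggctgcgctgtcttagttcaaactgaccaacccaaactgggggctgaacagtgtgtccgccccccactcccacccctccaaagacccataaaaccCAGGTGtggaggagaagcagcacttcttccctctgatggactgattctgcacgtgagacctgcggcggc
Dsp had 1 E-box, 3 bases after the start. Epcam had 2, at 187 and 19 bases before the start. The Jup promoter, on the minus strand at chr11:100397741-100398040, had none. Searched on both strands, CACCTG was present in 20.2% of 32851 promoters of the same length. The grainyhead motif AACCNGTT (in 2.09% of promoters) and the AP-1 motif TGANTCA (in 7.81%) had no match in the 3 sequences. The G and C share was 73.0% in the Dsp promoter, 60.7% in that of Jup and 57.0% in that of Epcam, and the median over all promoters was 52.7%. A match describes the letters alone and shows no binding.

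Across the series, array medians lay between 7.29 and 7.35, and correlations between arrays of the same group were 0.988 to 0.997. The targeted gene did not show the labelled change. Itga6 measured 11.75, 11.93, 11.84 and 11.77 in mutant tamoxifen mice, 11.39, 11.28, 11.49 and 11.47 in mutant NaCl mice and 11.15, 11.52 and 11.49 in control tamoxifen mice. It was higher, by 0.41 against mutant NaCl (limma, adjusted p = 0.0053) and by 0.42 against control tamoxifen (adjusted p = 0.0095). The call against control tamoxifen was lost without mutant tamoxifen replicate 3 (adjusted p = 0.0614) and without control tamoxifen replicates 1 and 3 (0.29, adjusted p = 0.0993). Whether the probes lie in the deleted part of the gene is not known here. All directions below follow the labels, so a mutant tamoxifen mouse means an animal labelled so. Markers of stratified squamous epithelium also varied in steps between arrays and were lowest in 2 of them. The mean of 15 such markers was 6.80 and 7.99 in control tamoxifen replicates 1 and 3, both male, against 8.58 to 10.38 in the other 9 arrays. Results of the 8 genes against control tamoxifen are given with and without these 2 arrays. This cut was chosen after seeing the data and leaves 1 control tamoxifen array. Where nothing else is said, tests are two-sided limma tests with a term for sex, adjusted by Benjamini-Hochberg over all 19946 genes, with a threshold of 0.05.

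In the mutant tamoxifen mice, the desmosomal cadherin Dsc2 and the plakophilins Pkp2 and Pkp3 were higher than in both other groups. Dsg2, Cdh1 and Epcam differed by at most 0.05 in either comparison. Desmoplakin passed the test against mutant NaCl and missed it against control tamoxifen. Against control tamoxifen, 3 of the 8 genes passed as higher and 0 as lower, where 24.6% of all genes passed, 12.9% as higher and 11.8% as lower. Dsc2 and Pkp3 passed without control tamoxifen replicates 1 and 3 (2 of 8), where 1409 of the 19946 genes passed. Against mutant NaCl, 4 of 8 passed as higher and 0 as lower. Of all genes, 23.2% passed there, 12.5% as higher and 10.7% as lower. These shares include dim genes, and all 8 members remain when the lowest 50% of genes is left out. Of the 9973 genes then tested, 4032 passed against control tamoxifen, 2370 as higher. Against mutant NaCl 4067 of them passed, 2317 as higher. The members' counts stayed at 3 and 4 of 8, and the medians of the 9973 genes were 0.03 and 0.02. The median difference of the 8 genes was 0.15 against control tamoxifen, beside -0.02 for all genes, and 0.17 against mutant NaCl, beside -0.01 for all genes. Both comparisons use the same 4 mutant tamoxifen arrays.

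**Figure D1:**
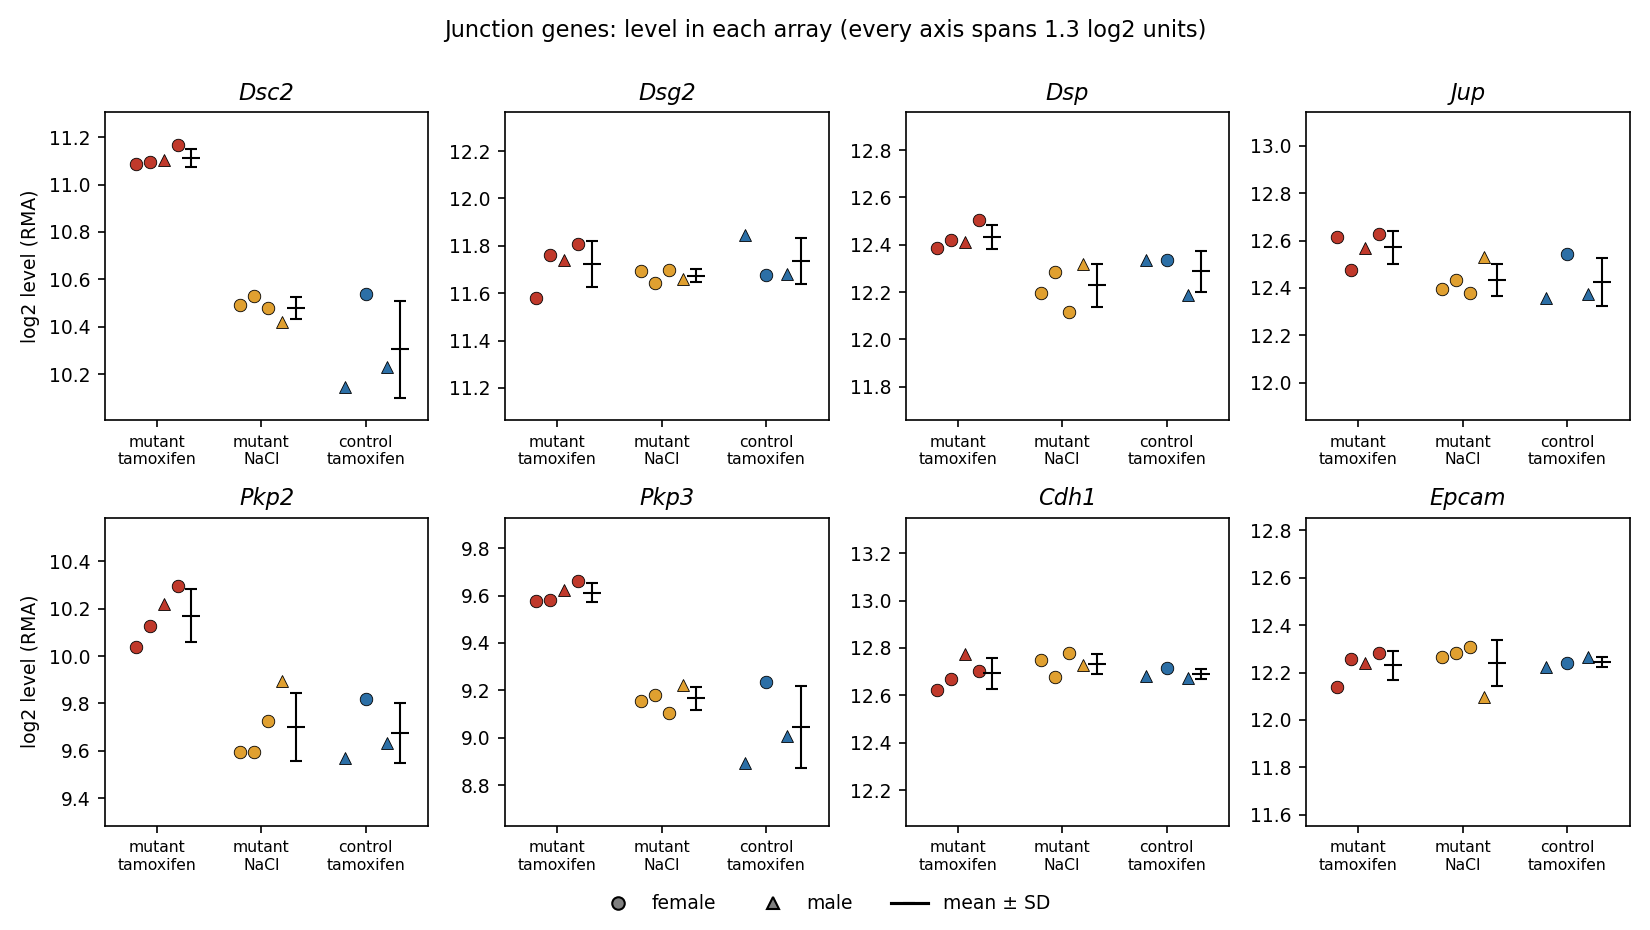
Log2 level of each of the 8 genes in each of the 11 arrays (1 point per mouse), by group, with the group mean and SD. In Dsc2, Pkp2, Pkp3 and Dsp every mutant tamoxifen array lies above every array of the other groups, while in Dsg2, Jup, Cdh1 and Epcam the groups overlap.

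Dsc2 encodes desmocollin 2, a desmosomal cadherin. It measured 11.09, 11.09, 11.10 and 11.17 in mutant tamoxifen mice, 10.49, 10.53, 10.48 and 10.42 in mutant NaCl mice and 10.14, 10.54 and 10.23 in control tamoxifen mice. The 4 mutant tamoxifen values lay close together and above all 7 others. The means were 11.11 ± 0.037 (SD, n = 4) in mutant tamoxifen mice, 10.48 ± 0.045 (SD, n = 4) in mutant NaCl mice and 10.30 ± 0.206 (SD, n = 3) in control tamoxifen mice. Dsc2 rose by 0.75 (SE 0.070, 1.68-fold, adjusted p = 0.000123) against control tamoxifen. Against mutant NaCl it rose by 0.63 (SE 0.061, 1.55-fold, adjusted p = 0.000106). Without control tamoxifen replicates 1 and 3 the difference from the remaining control array was 0.59 (adjusted p = 0.00342).

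Dsg2 encodes desmoglein 2, the cadherin that shares the simple epithelial desmosome with Dsc2. It measured 11.58, 11.76, 11.74 and 11.81 in mutant tamoxifen mice, 11.69, 11.64, 11.70 and 11.66 in mutant NaCl mice and 11.85, 11.68 and 11.68 in control tamoxifen mice. The groups overlapped, and the lowest mutant tamoxifen array, replicate 1, was also the lowest of all 11. The difference was -0.00 against control tamoxifen (95% interval -0.14 to 0.14, adjusted p = 0.991) and 0.05 against mutant NaCl (interval -0.08 to 0.17, adjusted p = 0.608). Without control tamoxifen replicates 1 and 3 the difference from control tamoxifen was 0.04 (adjusted p = 0.796).

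The 2 cadherins were also compared within each array, a pair chosen with earlier results of these data known. Probe sets of different genes are not on 1 scale, so only the shift of this difference between groups is read. Dsc2 minus Dsg2 was -0.50, -0.67, -0.64 and -0.64 in mutant tamoxifen mice, -1.20, -1.12, -1.22 and -1.24 in mutant NaCl mice and -1.70, -1.14 and -1.45 in control tamoxifen mice. All 4 mutant tamoxifen arrays lay above the 7 others. The shift was 0.59 against mutant NaCl (exact permutation p = 0.0286, the smallest that 4 against 4 allows) and 0.82 against control tamoxifen (exact permutation p = 0.0571, the smallest that 4 against 3 allows). Over the 9 tests of this kind both adjusted values were 0.257, so neither passed the threshold. Without control tamoxifen replicates 1 and 3, the -1.14 of replicate 2 is the only control value, which was the highest of that group. Between mutant NaCl and control tamoxifen the groups overlapped and the shift was 0.24 (exact permutation p = 0.229).

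Among the armadillo proteins, Pkp2 encodes plakophilin 2, which binds desmoplakin and cadherin tails. It measured 10.04, 10.13, 10.22 and 10.30 in mutant tamoxifen mice, 9.59, 9.59, 9.73 and 9.90 in mutant NaCl mice and 9.57, 9.82 and 9.63 in control tamoxifen mice. Every mutant tamoxifen array was above every other array. The values spread more within each mutant group than those of the other members did, with an SD of 0.113 in mutant tamoxifen mice and 0.143 in mutant NaCl mice. Pkp2 rose by 0.51 (SE 0.099, 1.43-fold, adjusted p = 0.00447) against control tamoxifen and by 0.47 (SE 0.086, 1.38-fold, adjusted p = 0.00343) against mutant NaCl. The first of these calls was lost without control tamoxifen replicates 1 and 3 (0.31, adjusted p = 0.139) and in female arrays alone (0.34, adjusted p = 0.118).

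Pkp3 encodes plakophilin 3, which binds most of the desmosomal proteins. It measured 9.58, 9.58, 9.62 and 9.66 in mutant tamoxifen mice, 9.15, 9.18, 9.11 and 9.22 in mutant NaCl mice and 8.89, 9.23 and 9.01 in control tamoxifen mice. As with Dsc2, the mutant tamoxifen values were tight and above all others. Pkp3 rose by 0.54 (SE 0.078, 1.46-fold, adjusted p = 0.0011) against control tamoxifen and by 0.45 (SE 0.068, 1.36-fold, adjusted p = 0.00128) against mutant NaCl. Without control tamoxifen replicates 1 and 3 the difference was 0.37 (adjusted p = 0.0279). The difference Pkp3 minus Pkp2 overlapped between all groups, with shifts of 0.07 for mutant tamoxifen against control tamoxifen, -0.02 against mutant NaCl and 0.09 for mutant NaCl against control tamoxifen (exact permutation p from 0.286 to 0.8).

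Jup encodes plakoglobin, the armadillo protein that both junctions contain. It measured 12.62, 12.48, 12.57 and 12.63 in mutant tamoxifen mice, 12.40, 12.43, 12.38 and 12.53 in mutant NaCl mice and 12.36, 12.54 and 12.37 in control tamoxifen mice. The groups overlapped through mutant tamoxifen replicate 2, mutant NaCl replicate 4 and control tamoxifen replicate 2. The differences of 0.14 against control tamoxifen (interval 0.00 to 0.28, adjusted p = 0.129) and 0.14 against mutant NaCl (interval 0.02 to 0.26, adjusted p = 0.101) missed the threshold. Against control tamoxifen, the value of Jup turned on which control arrays were kept. It passed without replicate 2 (0.25, adjusted p = 0.032), and was 0.01 (adjusted p = 0.933) without replicates 1 and 3 and 0.03 (adjusted p = 0.830) in female arrays alone. Against mutant NaCl it passed without mutant NaCl replicate 4 (0.19, adjusted p = 0.0311). Jup minus Ctnnb1, the difference from its close relative β-catenin, shifted by 0.03 against control tamoxifen and by 0.02 against mutant NaCl, with overlapping groups.

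Dsp encodes desmoplakin, the plakin that anchors keratin filaments, and its promoter is printed above. It measured 12.39, 12.42, 12.41 and 12.50 in mutant tamoxifen mice, 12.20, 12.28, 12.12 and 12.32 in mutant NaCl mice and 12.34, 12.34 and 12.19 in control tamoxifen mice. The mutant tamoxifen values lay above all others, by a small gap to control tamoxifen replicates 1 and 2. Dsp rose by 0.20 (SE 0.054, 1.15-fold, adjusted p = 0.0213) against mutant NaCl, and differed by 0.15 (interval 0.01 to 0.29, adjusted p = 0.112) from control tamoxifen. The last difference was 0.08 (adjusted p = 0.582) without control tamoxifen replicates 1 and 3. The call against mutant NaCl was lost without mutant tamoxifen replicate 4, mutant NaCl replicate 1 or mutant NaCl replicate 3, with adjusted p between 0.0549 and 0.060.

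Cdh1 encodes E-cadherin, the cadherin of the adherens junction. It measured 12.62, 12.67, 12.78 and 12.70 in mutant tamoxifen mice, 12.75, 12.68, 12.78 and 12.73 in mutant NaCl mice and 12.68, 12.71 and 12.67 in control tamoxifen mice. No group stood apart. The difference was 0.01 against control tamoxifen (interval -0.09 to 0.11, adjusted p = 0.850) and -0.04 against mutant NaCl (interval -0.13 to 0.05, adjusted p = 0.521). The difference from control tamoxifen replicate 2 alone, in the fit without replicates 1 and 3, was -0.03 (adjusted p = 0.785).

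Epcam encodes a surface glycoprotein of epithelial cells that binds claudin 7. It measured 12.14, 12.26, 12.24 and 12.28 in mutant tamoxifen mice, 12.27, 12.28, 12.31 and 12.10 in mutant NaCl mice and 12.22, 12.24 and 12.27 in control tamoxifen mice. The whole spread over 11 arrays was 12.10 to 12.31. The difference was -0.04 against control tamoxifen (interval -0.16 to 0.08, adjusted p = 0.657) and -0.01 against mutant NaCl (interval -0.12 to 0.10, adjusted p = 0.919). With control tamoxifen replicates 1 and 3 left out, the difference from control tamoxifen was 0.01 (adjusted p = 0.953).

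**Figure D2:**
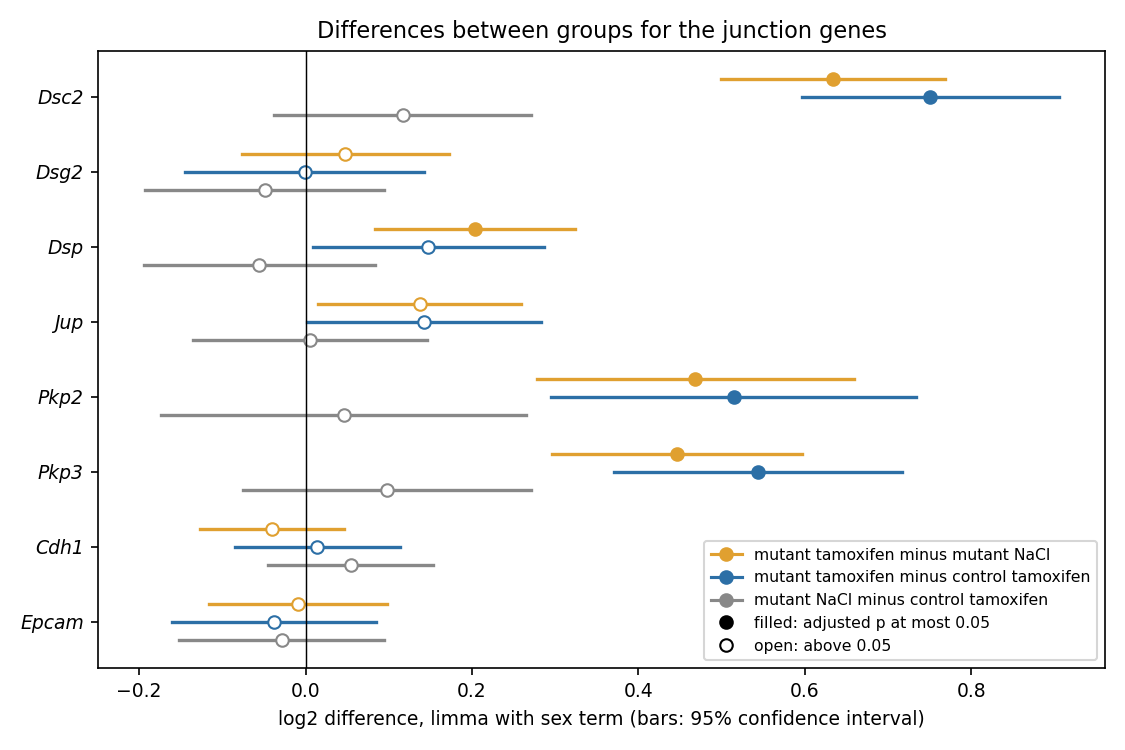
Log2 difference of each of the 8 genes with its 95% interval in the 3 comparisons, with filled points where the adjusted p is at most 0.05. Dsc2, Pkp2 and Pkp3 lie between 0.45 and 0.75 in both comparisons of the mutant tamoxifen group, and no gene passes for mutant NaCl against control tamoxifen.

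With 4 of 8 genes, Dsc2, Pkp2, Pkp3 and Dsp, every mutant tamoxifen array was above every control tamoxifen array, where 17.3% of all genes had that pattern. The same 4 genes were above every mutant NaCl array, where 14.2% of all genes were. With 0 of 8 genes was every mutant tamoxifen array below the other group's arrays, where 20.0% of all genes were against control tamoxifen and 12.6% against mutant NaCl. These 4 shares include dim genes, whereas all 8 members remain when the lowest 50% of genes is left out. Shares of this pattern were not computed for the 9973 brighter genes. Higher calls made up a larger share there, 2370 of 9973 against control tamoxifen beside 2570 of 19946. The 3 upward calls on Dsc2, Pkp2 and Pkp3 in both comparisons remained in each of the 11 fits that left out 1 array.

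Mutant NaCl and control tamoxifen mice differ in both genotype and drug. Between them 0 of the 8 genes passed limma's test, 0 had an unadjusted p under 0.05, and the groups overlapped for every one of the 8. Of all genes, 2.82% had every mutant NaCl array above every control tamoxifen array and 5.32% had every one below. Of all genes, 0 passed (0%) and 1625 (8.15%) had an unadjusted p under 0.05. Dsc2 had the smallest p of the 8, with a difference of 0.12 (interval -0.04 to 0.27, adjusted p = 0.690). The sex term, male minus female, passed for none of the 8 genes in limma's test, and Dsc2 was the only one with an unadjusted p under 0.05 (-0.14, adjusted p = 0.782). Among control tamoxifen mice the males had squamous marker levels of 6.80 and 7.99 and the female 10.38. Sex and squamous level cannot be told apart in that group.

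Levels of the markers of some cell types moved with the groups. RNA came from whole mucosa, in which fewer cells of a type and less RNA per cell cannot be told apart. The mean of 14 markers of simple intestinal epithelium was 12.19 to 12.33 in mutant tamoxifen mice, 12.02 to 12.08 in mutant NaCl mice and 11.98 to 12.10 in control tamoxifen mice. Of these markers, 6 were higher and 1 was lower against mutant NaCl, and 4 were higher and 1 lower against control tamoxifen. The other 7 and 9 did not pass, and the median difference of the 14 was 0.11 in each comparison. The 12 smooth muscle markers averaged 11.52 to 11.68 in mutant tamoxifen mice, 11.97 to 12.25 in mutant NaCl mice and 12.11 to 12.22 in control tamoxifen mice, and all 12 were lower in both comparisons. The 10 neutrophil markers averaged 7.73 to 8.14 in mutant tamoxifen mice and 7.15 to 7.22 in mutant NaCl mice. In control tamoxifen mice they averaged 7.11 to 7.35, and 7 were higher in each comparison. Of 8 fibroblast markers, 4 were higher and 2 lower against mutant NaCl, and 1 was higher and 0 lower against control tamoxifen. The macrophage and B cell lists had at most 1 call in each direction. Markers of endothelium and T cells had 0 calls in either comparison.

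With the simple epithelium level as a covariate, 0 of 8 genes passed in either comparison. Of all 19946 genes, only 57 passed against control tamoxifen and 55 against mutant NaCl in these fits. Dsc2 then differed by 0.53 (adjusted p = 0.149) from control tamoxifen and by 0.43 (adjusted p = 0.181) from mutant NaCl. The differences against control tamoxifen were 0.32 for Pkp3 (adjusted p = 0.455) and 0.16 for Pkp2 (adjusted p = 0.760), both smaller than without the covariate. With the smooth muscle level in its place, an alternative chosen after seeing the data, 0 of 8 passed as well, and 1 gene of 19946 in each comparison. Dsc2 then differed by 0.72 (adjusted p = 0.283) from control tamoxifen and by 0.60 (adjusted p = 0.361) from mutant NaCl. The differences from control tamoxifen were 0.85 for Pkp2 (adjusted p = 0.338) and 0.59 for Pkp3 (adjusted p = 0.438), both larger than without the covariate. Neither marker level overlapped between the mutant tamoxifen arrays and the 7 others, so covariate and group largely coincide, and the part of these cells in the results was not tested.

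The squamous level did overlap, at 8.58 to 10.28 in mutant tamoxifen mice, 9.08 to 10.32 in mutant NaCl mice and 6.80 to 10.38 in control tamoxifen mice. Of its 15 markers, 1 passed as higher against control tamoxifen and 0 passed in limma's test against mutant NaCl. With this level as a covariate, Dsc2 differed by 0.70 (adjusted p = 0.000317), Pkp3 by 0.47 (adjusted p = 0.00195) and Pkp2 by 0.45 (adjusted p = 0.0147) from control tamoxifen, and the 3 calls held. Dsg3 and Dsc3, desmosomal cadherins of squamous epithelium, were high and low in the same arrays as the squamous level. Dsg3 measured 8.51, 8.78, 6.86 and 8.31 in mutant tamoxifen mice, 8.17, 8.40, 7.06 and 7.83 in mutant NaCl mice and 5.84, 8.62 and 6.03 in control tamoxifen mice. Dsg4, at 5.48 to 5.74, and Dsg1c, which was lowest (4.95) in an array with a squamous level of 10.32, were not. Within the control tamoxifen group Dsc2, Pkp3, Pkp2 and Jup ran in the same order as the squamous level, and Dsg2 in the reverse order. At squamous levels of 6.80, 7.99 and 10.38, Dsc2 was 10.14, 10.23 and 10.54 and Pkp3 was 8.89, 9.01 and 9.23. Neither Dsc2 nor Pkp3 kept to that order within the mutant groups. In mutant tamoxifen mice the squamous level was 8.58, 9.98, 10.28 and 10.28. Dsc2 was 11.10, 11.17, 11.09 and 11.09 in these arrays, and Pkp3 was 9.62, 9.66, 9.58 and 9.58.

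**Figure D3:**
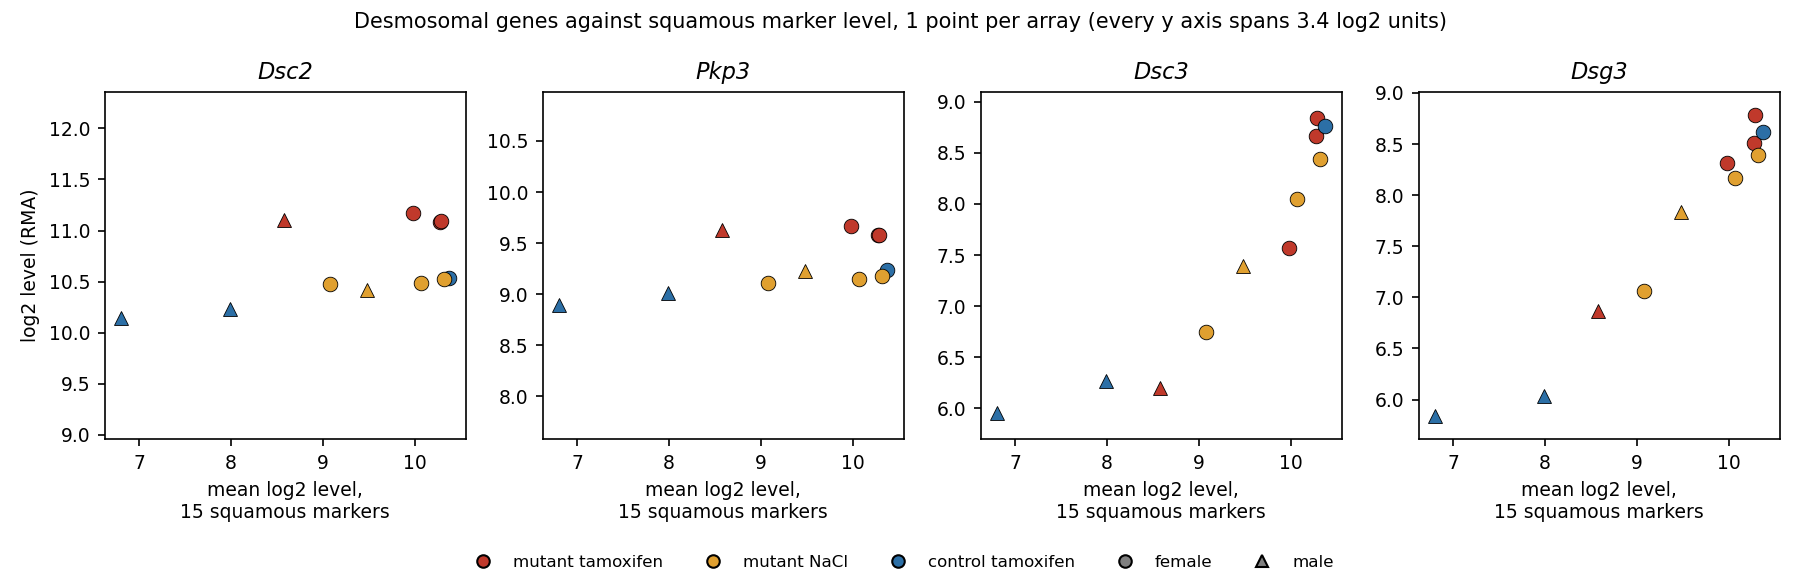
Log2 levels of Dsc2, Pkp3, Dsc3 and Dsg3 (vertical axes, all of 1 length in log2 units) against the mean log2 level of 15 squamous markers in the same array, 1 point per mouse. Dsc3 and Dsg3 climb with the squamous level in every group, and in Dsc2 and Pkp3 the control tamoxifen arrays climb with it by less, with the 4 mutant tamoxifen arrays above the 7 others.

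The counts of the 4 lists below stand beside the shares of all genes given above, which were 12.9% higher and 11.8% lower against control tamoxifen and 12.5% higher and 10.7% lower against mutant NaCl. With the lowest 50% of genes left out the shares were larger. Of 9973 genes, 2370 were then higher and 1662 lower against control tamoxifen, and 2317 higher and 1750 lower against mutant NaCl. The lists mix bright and dim genes, so neither background fits all of them. Of 12 other desmosome genes, 10 were measured. Against control tamoxifen 1 was higher and 1 was lower, and against mutant NaCl 1 was higher and 0 were lower. Pkp4, an armadillo protein found in desmosomes and adherens junctions, measured 10.69, 10.71, 10.60 and 10.53 in mutant tamoxifen mice, 10.31, 10.26, 10.30 and 10.50 in mutant NaCl mice and 10.33, 10.23 and 10.31 in control tamoxifen mice. It rose by 0.38 (adjusted p = 0.00289) against control tamoxifen and by 0.29 (adjusted p = 0.00539) against mutant NaCl. Both calls held in all 11 fits without 1 array, and the first became 0.38 (adjusted p = 0.0587) without control tamoxifen replicates 1 and 3. Evpl, a plakin of the cornified envelope, was just past the threshold as lower against control tamoxifen (-0.25, adjusted p = 0.0476). Its arrays overlapped, and the call was lost in 8 of 11 fits without 1 array. Perp, a desmosomal membrane protein (0.18, adjusted p = 0.120), and the plakin Ppl (0.43, adjusted p = 0.182) missed the threshold there. Perp passed without control tamoxifen replicate 2 (0.30, adjusted p = 0.046). With control tamoxifen replicates 1 and 3 left out, Perp differed by 0.04 (adjusted p = 0.850) and Ppl by 0.03 (adjusted p = 0.958). The median difference of the 10 genes was 0.15 against control tamoxifen and 0.16 against mutant NaCl.

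All 16 other adherens junction genes were measured. Against control tamoxifen 5 were higher and 1 was lower, and against mutant NaCl 3 were higher and 1 was lower. The 5 were the intestinal cadherin Cdh17 (0.27, adjusted p = 0.00553), the α-catenin Ctnna1 (0.20, adjusted p = 0.0167), the actin crosslinker Actn4 (0.22, adjusted p = 0.0196), p120-catenin Ctnnd1 (0.15, adjusted p = 0.0392) and β-catenin Ctnnb1 (0.11, adjusted p = 0.0478). Cdh17, Ctnna1 and Ctnnb1 also passed against mutant NaCl, by 0.19, 0.20 and 0.12. Cdh17 measured 12.52, 12.60, 12.66 and 12.70 in mutant tamoxifen mice, 12.51, 12.40, 12.42 and 12.39 in mutant NaCl mice and 12.29, 12.41 and 12.30 in control tamoxifen mice. N-cadherin, Cdh2, which is found in neural and muscle cells, fell by 0.27 in both comparisons (adjusted p = 0.0282 against control tamoxifen and 0.0174 against mutant NaCl). Of the calls against mutant NaCl, only that on Ctnna1 held in all 11 fits without 1 array. Those against control tamoxifen were lost in 9 of 11 such fits for Ctnnd1 and in 10 of 11 for Ctnnb1. Without mutant tamoxifen replicate 3 the calls on Ctnna1 and Actn4 against control tamoxifen (adjusted p = 0.0912 and 0.106), that on Cdh17 against mutant NaCl (adjusted p = 0.0637) and both on Cdh2 (adjusted p = 0.151 and 0.0681) were lost. Cdh2 also failed without mutant tamoxifen replicate 2 in both comparisons (adjusted p = 0.0553 and 0.0521), without control tamoxifen replicate 2 (adjusted p = 0.193 against control tamoxifen) and without mutant NaCl replicate 4 (adjusted p = 0.0623 against mutant NaCl). Without control tamoxifen replicates 1 and 3, none of these 6 genes passed limma's test against control tamoxifen, and Cdh17 differed by 0.21 (adjusted p = 0.136). The median of the 16 genes was 0.05 against control tamoxifen and 0.06 against mutant NaCl.

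Of 10 partners of EPCAM and proteases that act on junction proteins, 8 were measured. Against control tamoxifen 2 were higher and 2 were lower, and against mutant NaCl 3 were higher and 2 were lower. The sheddase Adam10, which cuts E-cadherin and desmoglein 2, measured 10.98, 11.06, 11.06 and 11.01 in mutant tamoxifen mice, 10.78, 10.67, 10.78 and 10.70 in mutant NaCl mice and 10.63, 10.65 and 10.69 in control tamoxifen mice. It rose by 0.37 (adjusted p = 0.000804) against control tamoxifen and by 0.29 (adjusted p = 0.00112) against mutant NaCl. The related sheddase Adam17 rose by 0.33 (adjusted p = 0.0117) against control tamoxifen and by 0.29 (adjusted p = 0.0112) against mutant NaCl. Adam15 measured 10.41, 10.35, 10.42 and 10.34 in mutant tamoxifen mice, 10.77, 10.85, 10.83 and 10.89 in mutant NaCl mice and 10.78, 10.93 and 10.82 in control tamoxifen mice. It fell by 0.46 (adjusted p = 0.000478) against control tamoxifen and by 0.45 (adjusted p = 0.000181) against mutant NaCl. Spint2, an inhibitor of the protease matriptase, fell by 0.26 (adjusted p = 0.00153) against control tamoxifen and by 0.16 (adjusted p = 0.00811) against mutant NaCl. Matriptase itself, St14, passed against mutant NaCl (0.15, adjusted p = 0.025), a call lost in 4 of 11 fits without 1 array, and its difference from control tamoxifen was 0.13 (adjusted p = 0.0645). The calls on Adam10, Adam15 and Spint2 held in all 11 fits without 1 array in both comparisons, and without control tamoxifen replicates 1 and 3. That on Adam17 against control tamoxifen was lost without mutant tamoxifen replicate 3 (adjusted p = 0.0803), without control tamoxifen replicate 2 (adjusted p = 0.0754) and without control tamoxifen replicates 1 and 3 (adjusted p = 0.0907).

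Of 17 transcription factors known to act on epithelial cadherin and desmosome genes, 2 were higher and 1 was lower against control tamoxifen, close to the shares of all genes. Against mutant NaCl 3 were higher and 4 were lower. Snai2, a repressor of E-cadherin known from cell migration and wound edges, measured 9.30, 9.08, 9.07 and 9.01 in mutant tamoxifen mice, 8.56, 8.56, 8.77 and 8.67 in mutant NaCl mice and 8.62, 8.58 and 8.70 in control tamoxifen mice. It rose by 0.49 (adjusted p = 0.00284) against control tamoxifen and by 0.48 (adjusted p = 0.00159) against mutant NaCl. Zeb1, another E-cadherin repressor, fell by 0.39 (adjusted p = 0.00557) against mutant NaCl, and its difference of -0.27 from control tamoxifen missed the threshold (adjusted p = 0.0514), which it passed in 4 of 11 fits without 1 array. Grhl3, a grainyhead factor of barrier epithelia, rose by 0.80 (adjusted p = 0.0186) against control tamoxifen and by 0.67 (adjusted p = 0.0217) against mutant NaCl. Its call against control tamoxifen was lost without mutant tamoxifen replicate 3 (adjusted p = 0.102) and without control tamoxifen replicates 1 and 3 (0.26, adjusted p = 0.380), and its call against mutant NaCl in 4 of 11 fits without 1 array. Hnf4a, a factor of intestinal epithelial differentiation, measured 12.50, 12.49, 12.55 and 12.49 in mutant tamoxifen mice, 12.76, 12.77, 12.80 and 12.83 in mutant NaCl mice and 12.77, 12.80 and 12.74 in control tamoxifen mice. It fell by 0.25 (adjusted p = 0.0011) against control tamoxifen and by 0.28 (adjusted p = 0.000235) against mutant NaCl. Against mutant NaCl alone, Cdx2 passed as higher (0.83, adjusted p = 0.019), and Klf4 (-0.20, adjusted p = 0.00724) and Klf5 (-0.15, adjusted p = 0.0477) passed as lower, all with overlapping arrays. The call on Klf4 held in all 11 fits without 1 array, that on Cdx2 in 8 and that on Klf5 in 2. The calls on Snai2 and Hnf4a held in all 11 in both comparisons, and without control tamoxifen replicates 1 and 3. Between mutant NaCl and control tamoxifen, 0 genes of these 4 lists passed limma's test.

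**Figure D4:**
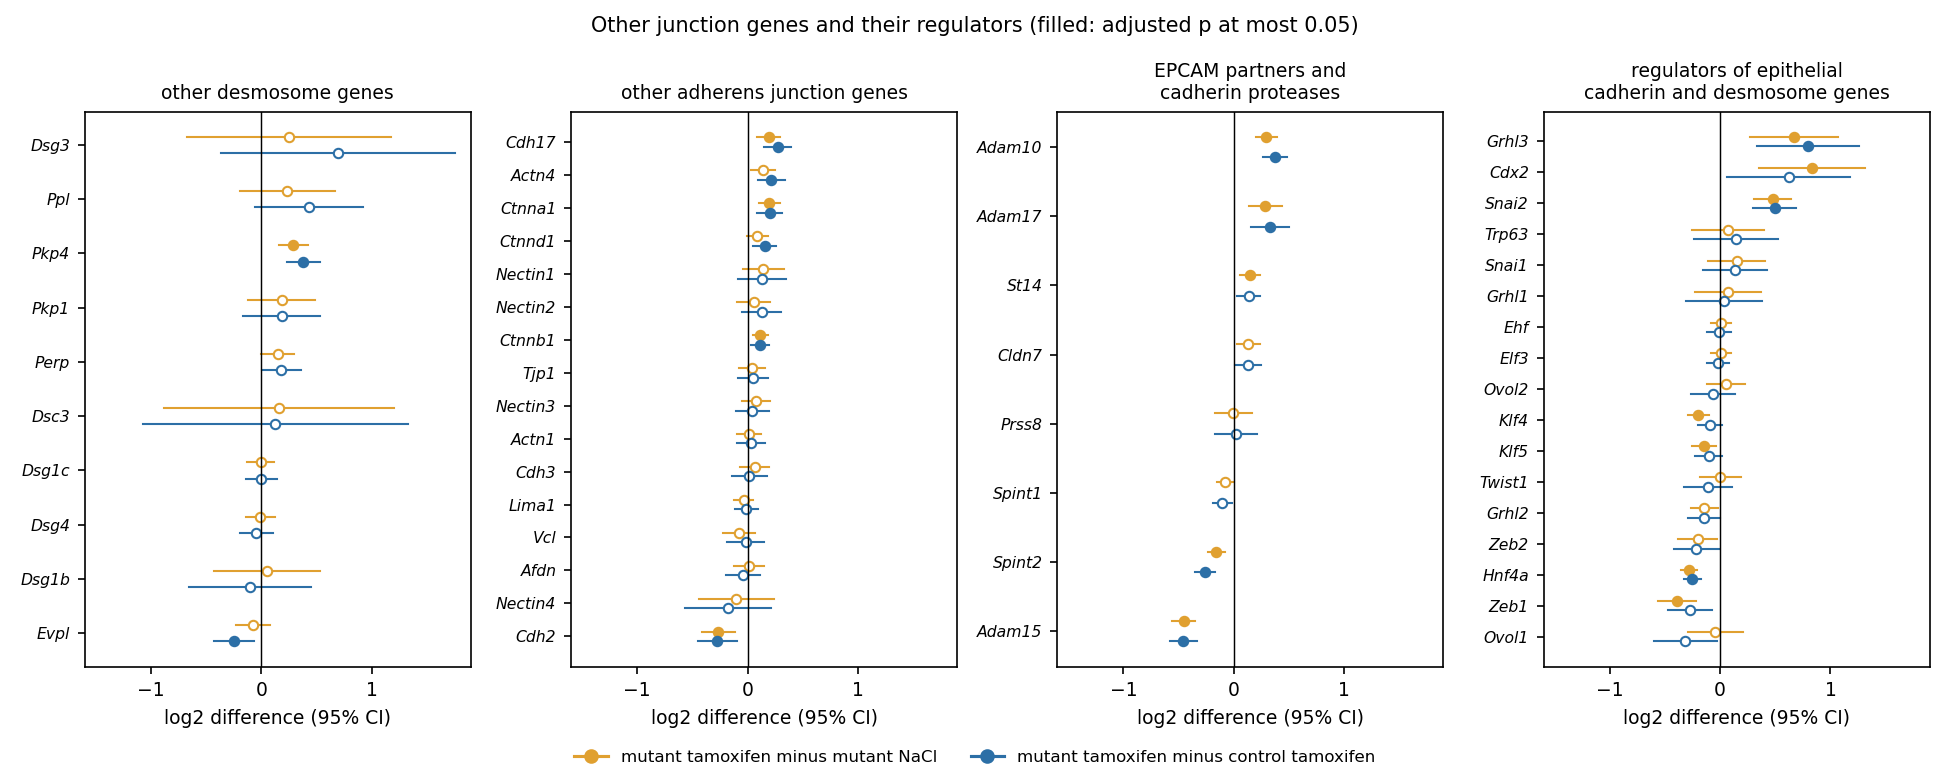
Log2 differences with 95% intervals for the measured genes of 4 lists related to the junctions, against mutant NaCl and against control tamoxifen, filled where the adjusted p is at most 0.05. Pkp4, Cdh17, Ctnna1, Adam10, Adam17, Snai2 and Grhl3 lie right of 0 and are filled in both comparisons, and Cdh2, Adam15, Spint2 and Hnf4a lie left of 0 and are filled in both.

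Genes whose pattern over the 11 arrays lay nearest to a member's were found by the mean absolute difference of the levels, each gene first centred on its own mean. This was done for the 3 members that spanned more than 0.5 log2 units, and it describes these arrays without a test. Nearest to Dsc2, which spanned 1.02, were Dnajc10 (0.0557), Nipal2 (0.0627) and S100a16 (0.0635). Nearest to Pkp2, which spanned 0.73, were Cep126 (0.0438), the cytokine receptor subunit Osmr (0.0472) and Itgb4 (0.0485), the integrin β4 subunit that pairs with integrin α6. Nearest to Pkp3, which spanned 0.77, were Pgd (0.0330), Anxa2 (0.0362) and Hars (0.0409). Predicted genes and genes named only by a clone or accession were left out of the search. The median of this measure over the genes searched was 0.337 for Dsc2, 0.245 for Pkp2 and 0.244 for Pkp3. The nearest of so many genes lie below the median in any case.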

How the data were processed

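The authors deposited 1 log2 value per transcript cluster and array, made with RMA (background correction, quantile normalisation and summary over probes) in Expression Console version 1.1, from images read with Command Console version 2.0, per the labels. Partek is named in the submitters' processing notes, but for what step is not said. A genome build for these values is not given in the sources used here, so no coordinates are given for the transcript clusters. The promoter coordinates above belong to the RefSeq table.

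The table held 35556 transcript clusters, of which 21797 had 1 symbol, 1613 had several and 12146 were not listed in the platform annotation. Where a gene had several clusters (999 genes), the one with the highest mean level was kept, which gave 19946 genes, dim ones included. One linear model over all 11 arrays, with group and sex, was fitted in limma (version 3.58.1, R version 4.3.3), using moderated variances with a trend and Benjamini-Hochberg adjustment. Folds are 2 to the power of the size of the log2 difference. The pairs of genes were compared with exact two-sided permutation tests in scipy version 1.17.1. The steps were tested on simulated data. Each array is 1 mouse, and the number of arrays limits the precision.

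The members, lists, pairs and markers were chosen with earlier results of these data known. All members, Itga6, up to 4 genes of each list (those with the smallest p against control tamoxifen) and any gene counted in groups of 5 or fewer were named. Dsg3 and Dsc3 were named after their values were seen.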

Additional observations from a re-analysis of the deposited data

Results flagged for a closer look

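Over 22 groups of 4 arrays tested for a single distant array, 1 had one, and chance gives about 1 in 20. It was Dsc2 minus Dsg2 in the mutant tamoxifen mice, where replicate 1 had -0.50 (-0.4961) and the other 3 lay between -0.67 and -0.64. That array had the lowest Dsg2 level of its group (11.58), while its Dsc2 level (11.09) was close to the others.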

How the results depend on the processing

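The calls on Dsc2, Pkp2 and Pkp3 against both other groups kept their direction under every alternative run. They were lost with the simple epithelium or the smooth muscle marker level as a covariate. Against control tamoxifen, Pkp2 and Pkp3 then differed by 0.16 and 0.32 with the simple epithelium level. With the smooth muscle level they differed by 0.85 and 0.59. Covariate and group largely coincide in both fits, so the part of these cells was not tested. Pkp2 against control tamoxifen was also lost in female arrays alone and without control tamoxifen replicates 1 and 3. The smooth muscle level and the fit without those 2 arrays were chosen after seeing the data. With either covariate 0 of 8 genes passed against control tamoxifen and 0 of 8 against mutant NaCl. Leaving out 1 array gave 3 to 4 genes of 8 against control tamoxifen and 3 to 5 against mutant NaCl. With the smooth muscle level, Cdh2 reversed to 0.0065 against control tamoxifen and 0.0066 against mutant NaCl, Adam17 to -0.088 and -0.12, and, against mutant NaCl, Zeb1 to 0.27, St14 to -0.073 and Klf5 to 0.079. With the simple epithelium level Cdx2, itself one of those markers, reversed to -0.015 against mutant NaCl. The cause of the other reversals was not tested.

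Over all genes, 4915 passed against control tamoxifen. The count was 1384 in female arrays alone, 1409 without control tamoxifen replicates 1 and 3, 57 with the simple epithelium level and 1 with the smooth muscle level. It was 2517 without mutant tamoxifen replicate 3, 3031 without control tamoxifen replicate 2 and at most 4684 without 1 array. Against mutant NaCl, 4635 passed, with 55 under the simple epithelium level and 1 under the smooth muscle level. Both levels separate the mutant tamoxifen arrays from the rest. For mutant NaCl against control tamoxifen the count of 0 became 3 with only the arrays of these 2 groups and 2 with the simple epithelium level. It became 1 with the lowest 50% of genes left out, 1 with arrays centred on their median, 1 with quantile normalisation, 1 with array weights and 1 with the squamous level as a covariate, and ranged from 0 to 3 with 1 array left out.

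In female arrays alone, Dsc2 minus Dsg2 shifted by 0.54 for mutant tamoxifen against control tamoxifen and by -0.040 for mutant NaCl against control tamoxifen, and Jup minus Ctnnb1 by -0.13 for the last pair of groups. Only 1 control tamoxifen mouse was female, so these are values with no test, and the limma fits on female arrays or without 2 control arrays assume that the lone array varies like the other groups. No paired analysis was possible because the replicate numbers only name arrays. The array number limits what differences can be shown, and between groups of 4 and 3 no exact permutation test can pass the threshold.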
